A study of Mus musculus with 6 samples.

Results

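Jun peaks around Malat1 and Neat1, a pair of neighbouring long noncoding RNA genes, are described here from a ChIP-seq list of rib chondrocytes. The members are the peaks of the deposited Jun list whose midpoint lies in a window of 130 kb, chr19:5770001-5900000 on the mouse build mm9. There were 65 such peaks among the 99162 of the list. The window was selected on its number of peaks, their early place in the list and a wide peak, so these properties are given as descriptions and no test was made on them. Within the window, Malat1 was taken as about 5795700 to 5802700 and Neat1 as about 5842000 to 5846000 and beyond. These are approximate extents that came with the choice of the window, since an mm9 annotation was not used here.

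The Jun library and a library of input DNA each came from untreated rib chondrocytes, the cells of cartilage, taken on postnatal day 1 from ICR mice with no mutation (wild type). Per the labels, 20000000 enzyme-released cells per reaction were fixed in 1% formaldehyde for 10 minutes, the chromatin was sheared to 100 to 600 bp, and 9 μg of Jun antibody was used. The study asked how AP-1 factors and Sox9, the regulator of cartilage formation, act together as chondrocytes become hypertrophic. Only 1 Jun library is described and no replicate, the read depth of the list is unknown, and input values were not analysed here. How much of the signal at these transcripts is present in input DNA was therefore not tested.

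Jun is a subunit of AP-1, a dimeric transcription factor that binds short DNA motifs and responds to growth, stress and differentiation signals. Malat1 and Neat1 are transcribed from the same strand into abundant RNAs that stay in the nucleus. Malat1 RNA gathers in nuclear speckles, bodies rich in splicing factors. Neat1 RNA is made as a short and a long isoform from the same start, and the long one builds the paraspeckles. Both genes run toward lower coordinates, so their starts lie at the high end of each extent, and the long Neat1 isoform runs from its start past the end of the short one toward Malat1. In the order of genes in a RefSeq table of GRCm38.p6, Frmd8 is the next gene after Neat1 on its high side. The small RNA Mascrna, which is cut from the end of the Malat1 transcript, comes after Malat1 in this order, which goes by the lower coordinate. Its place in the order does not put Mascrna in the stretch between Malat1 and Neat1.

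The member at the start end of Malat1 was the peak chr19:5802580-5802700, which touches the high end of the approximate extent. It was 121 bp wide and stood in row 1443 of the list, and its nearest member on the Malat1 side stood in row 25719. Because a peak lies at this end, the promoter of Malat1 is shown, from RefSeq on GRCm38.p6 (minus strand, chr19:5802623-5802922 in that build, 250 bases before to 50 after the start). The peak positions are on mm9 and were not converted, so whether the peak covers this sequence was not determined. Capitals mark TGACG or its reverse complement CGTCA, the core shared by sites of the cyclic AMP response element (CRE) type, to which some Jun dimers bind.

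Malat1 promoter: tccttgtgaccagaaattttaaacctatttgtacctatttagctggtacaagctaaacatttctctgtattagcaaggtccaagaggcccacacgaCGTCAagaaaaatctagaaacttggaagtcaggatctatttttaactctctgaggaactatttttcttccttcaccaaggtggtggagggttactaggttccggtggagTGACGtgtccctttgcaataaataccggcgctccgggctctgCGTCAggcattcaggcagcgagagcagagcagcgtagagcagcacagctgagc

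The core occurred 3 times on the 2 strands of this window, with first bases 154, 45 and 3 bases before the start of the gene. At least 1 such core was present in 20.8% of the 32851 promoters in the table, and at least 3 in 1.03%. The AP-1 heptamer TGANTCA had 0 matches on either strand (7.81% of all promoters hold one), and the full CRE octamer TGACGTCA, which contains the core, also had 0 (1.79%). A match of letters is not a binding site, and these motifs were chosen after the sequence had been seen. A peak also lay near the start of Neat1, but the promoters searched included none of Neat1, so only that of Malat1 is shown.

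The Jun peaks formed a dense strip that began just beyond the low end of Malat1 and ended just beyond the start of Neat1. Between 5790001 and 5850000, bins of 10 kb held 10, 8, 13, 8, 5 and 10 peaks, low to high. The remaining 7 bins of the window held 0 to 5 peaks each. The strip was not continuous and held a gap of 6947 bp after the peak that ends at 5826448. The longest gaps lay outside the strip, at 16053 bp after the peak that ends at 5878076, 15024 bp after the one that ends at 5771387 and 13036 bp after the one that ends at 5857637. At the edges, the first and last members (rows 37727 and 57322) faced a peak at 5762980 to 5763330 (row 97334) below the window and one at 5912366 to 5912526 (row 91798) above it.

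With the approximate extents, the stretch between the genes held 34 of the 65 peaks, and the Neat1 extent had the most peaks per kb. The 7.0 kb of Malat1 held 7 peaks (1.00 per kb), the 39.3 kb between the extents held 34 (0.865 per kb), and the 4.0 kb of Neat1 held 5 (1.25 per kb). On the low side of Malat1, 25.7 kb held 9 peaks (0.350 per kb), and on the high side of Neat1, 54.0 kb held 10 (0.185 per kb). Peaks covered 22.0% of the Malat1 extent, 10.4% of the stretch between and 23.1% of the Neat1 extent, against 3.06% on the low side of Malat1 and 2.97% on the high side of Neat1. Coverage was thus similar in both extents. The numbers per gene depend on the approximate ends: lengthening Neat1 by 20 kb toward Malat1, as a stand-in for the long isoform, put 18 peaks in Neat1 (0.750 per kb) and left 21 between the genes (1.09 per kb). Neat1 was then the least dense of these 3 stretches, below the 1.00 per kb of Malat1, and the stretch between no longer held most of the peaks.

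Peaks in the window lay close together. The median distance between neighbouring midpoints was 912 bp in the window, 878 bp within Malat1, 836.5 bp between the genes and 602 bp within Neat1. There were 3 pairs of overlapping neighbours, 1 of them within Neat1. The others lay in the stretch between, 1 of them just below Neat1. When peaks no more than 1000 bp apart were joined, 26 regions remained, and the fullest joined 12 peaks over 6831 bp from 5811294 to 5818124, between the genes.

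Few places in the genome held as many Jun peaks. When the genome was divided into 19740 windows of 130 kb between the first and last peak of each chromosome, 9 windows (0.0456%) held at least 65 peaks, this window included. A window held a median of 2 peaks. Another window on chromosome 15 also held 65, and 7 held more, up to 126 on chromosome 1 (92610001 to 92740000).

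The peaks of the window stood early in the list more often than those of the other full windows. The list is not in genomic order and no label or header says what orders it, so an early row is reported as a place and not as a strength. The first 10% of the rows, 9916 rows, held 27 of the 65 members, or 41.5% (exact Clopper-Pearson 95% interval 29.4 to 54.4), beside 10.0% of all peaks by construction. This interval covers counting error only and treats neighbouring peaks as independent. It does not allow for the choice of the window on the early place of its peaks. By the same measure the share was 9.94% of the 3007 other peaks on chromosome 19. The members had their median in row 13956, at 14.1% of the list, and the rest of chromosome 19 at 49.4%. The last member inside the first 10% stood in row 7213 and the next member in row 12452, so no member lay near the limit of 9916 rows.

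**Figure D1:**
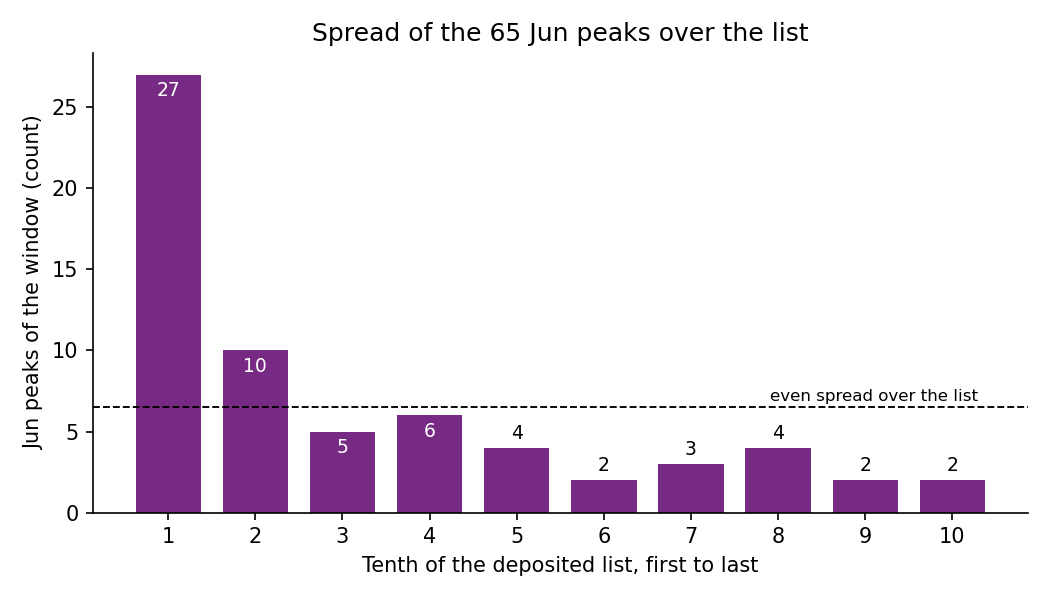
Number of the 65 Jun peaks of the window (vertical axis) in each successive 10% of the rows of the deposited list (horizontal axis); the dashed line marks an even spread. The first 10% held 27 peaks and the second 10, and each later part held between 2 and 6.

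The other windows of 130 kb held fewer early peaks, and this window was chosen in part on the early place of its peaks. Of the 19740 windows, 1 (0.00507%), the one with Malat1 and Neat1, held 27 or more peaks from the first 10% of the rows, and the next highest, also on chromosome 19 (9020001 to 9150000), held 12. The 8 other windows with at least 65 peaks had 2 to 11 such peaks, or 3.08% to 12.3% of their peaks. Among all 73 windows with at least 40 peaks the median share was 11.0%, and only the Malat1 and Neat1 window reached 41.5%.

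**Figure D2:**
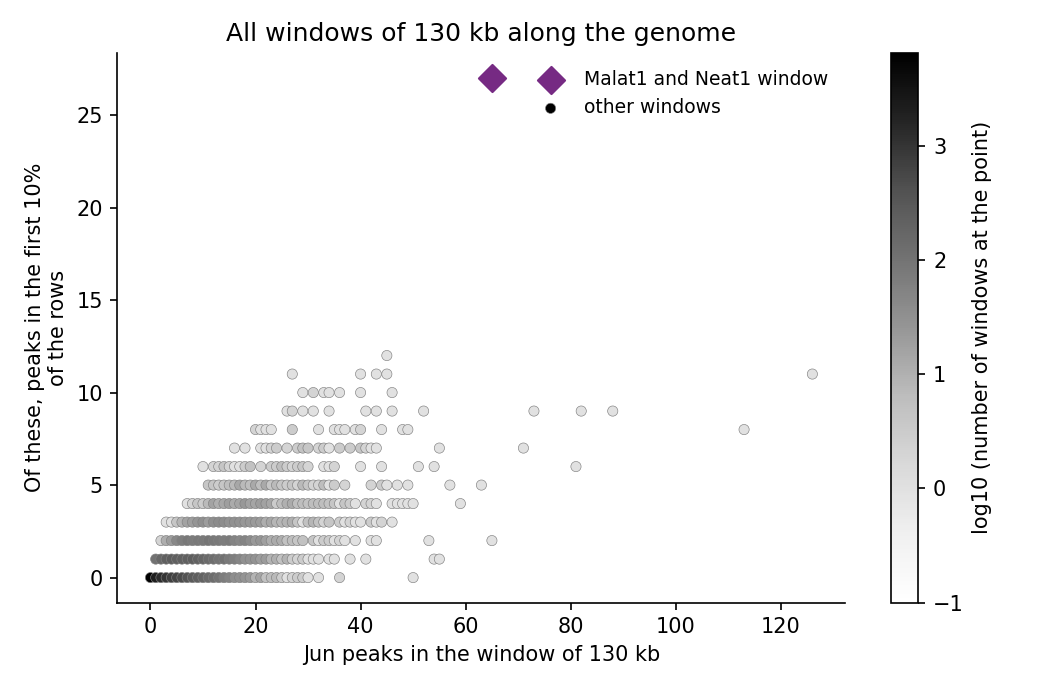
Each point stands for windows of 130 kb with a given number of Jun peaks (horizontal axis) and a given number of peaks from the first 10% of the rows (vertical axis); grey shades give the number of windows on a log10 scale. The Malat1 and Neat1 window (diamond) lies at 65 and 27, and no other window exceeds 12 on the vertical axis.

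Some of the early members stood at the very top of the list, which is part of the early place on which the window was chosen. The first 1% of the rows (0.999% of all peaks) held 14 members, 21.5% of the 65, and the next highest window held 5. The first 200 rows (0.202% of all peaks) held 8 members, which were 4.0% of those rows, and no other window held more than 3 of them.

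These early peaks were concentrated at Neat1 and on its Malat1-facing side. Taking peaks in genomic order, 13 neighbours in a row, from 5833396 to 5845472, all stood in the first 10% of the list, between rows 61 and 2041. This run spanned 12.1 kb and included every peak of the Neat1 extent. Counting an early peak with no early neighbour as a run too, there were 8458 runs over the whole list. The next longest had 6 peaks. The run was looked for after the values had been seen. Outside it, 14 of the 52 other members (26.9%) were in the first 10%, and their median row was 20564.5.

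The members with the earliest rows lay just below the approximate low end of Neat1, in the direction in which its long isoform continues. The earliest was chr19:5839420-5839567 in row 61, 148 bp wide. It was followed by chr19:5839896-5840005 in row 66, 110 bp wide. Next came chr19:5841551-5841687 in row 87, chr19:5841695-5841782 in row 104 and chr19:5841180-5841644 in row 112, with widths of 137, 88 and 465 bp. These 3 lie side by side, and the widest overlaps the row 87 peak. Another 2 peaks, in rows 129 and 144, lie further from Neat1, from 5838760 and 5836947. All 7 were thus in the first 150 rows of the list, and no member outside this stretch was. Whether they lie in the long isoform was not determined.

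Within the Neat1 extent all 5 peaks were early, though none was in the first 200 rows. Nearest the start of the gene was chr19:5845378-5845472 in row 530, 528 bp from the approximate high end. The overlapping peaks chr19:5844299-5844750 in row 1469 and chr19:5844120-5844474 in row 2041 were the widest of the extent, at 452 and 355 bp. At the far end from the start, chr19:5842667-5842833 stood in row 701 and chr19:5842431-5842462 in row 520. The median row of the 5 was 701.

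Malat1 differed in this respect, with 1 of its 7 peaks (14.3%) in the first 10% of the list. This was the peak at its start end, in row 1443. The median row of the 7 was 13956, a place of 14.1%, where all peaks have their median at 50.0% by construction. Every Malat1 peak thus came before the middle of the list. The 6 peaks other than the start peak stood between rows 13145 and 32548, the latter a place of 32.8%. They included the widest peak of the window, chr19:5800559-5801209, with 651 bp in row 13956, and chr19:5801775-5802173, with 399 bp in row 25719. The others were chr19:5799258-5799369 in row 20198, chr19:5798957-5799043 in row 32548, chr19:5797492-5797541 in row 13145 and chr19:5796898-5797016 in row 13678. These 4 lay in the part of the gene away from its start and measured 50 to 119 bp. The rows of Malat1 and Neat1 overlapped only through the Malat1 start peak, which stood between rows of Neat1 peaks. With 7 and 5 peaks of 1 library, chosen with these rows known, the contrast of the genes was not tested.

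Beyond the low end of Malat1, where its transcript ends, an early peak also occurred. The peak chr19:5794817-5794887 was 71 bp wide, lay 813 bp from the approximate end and stood in row 183. A peak of 25 bp at 5794302 to 5794326 stood in row 1637. Between them lay a peak in row 32879, and the other 6 peaks on this side stood between rows 19931 and 88399. Early and late rows were thus neighbours here.

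The stretch between the genes held both early and late rows. Of its 34 peaks 16 (47.1%) were in the first 10%, and 8 of these belonged to the run next to Neat1. With Neat1 lengthened by 20 kb, 16 of its 18 peaks were in the first 10%, against 5 of the 21 peaks (23.8%) that then remained between the genes. On the high side of Neat1, 3 of 10 peaks were in the first 10%. These were chr19:5878041-5878076 in row 886, chr19:5850280-5850385 in row 1968 and chr19:5848574-5848687 in row 4373. A wide peak of 430 bp, chr19:5847328-5847757, was the first beyond the start of Neat1 and stood in row 68913, which ended the run of early peaks. The latest members, in rows 89433 and 89434, lay at 5857343 to 5857637 and 5870674 to 5870868.

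**Figure D3:**
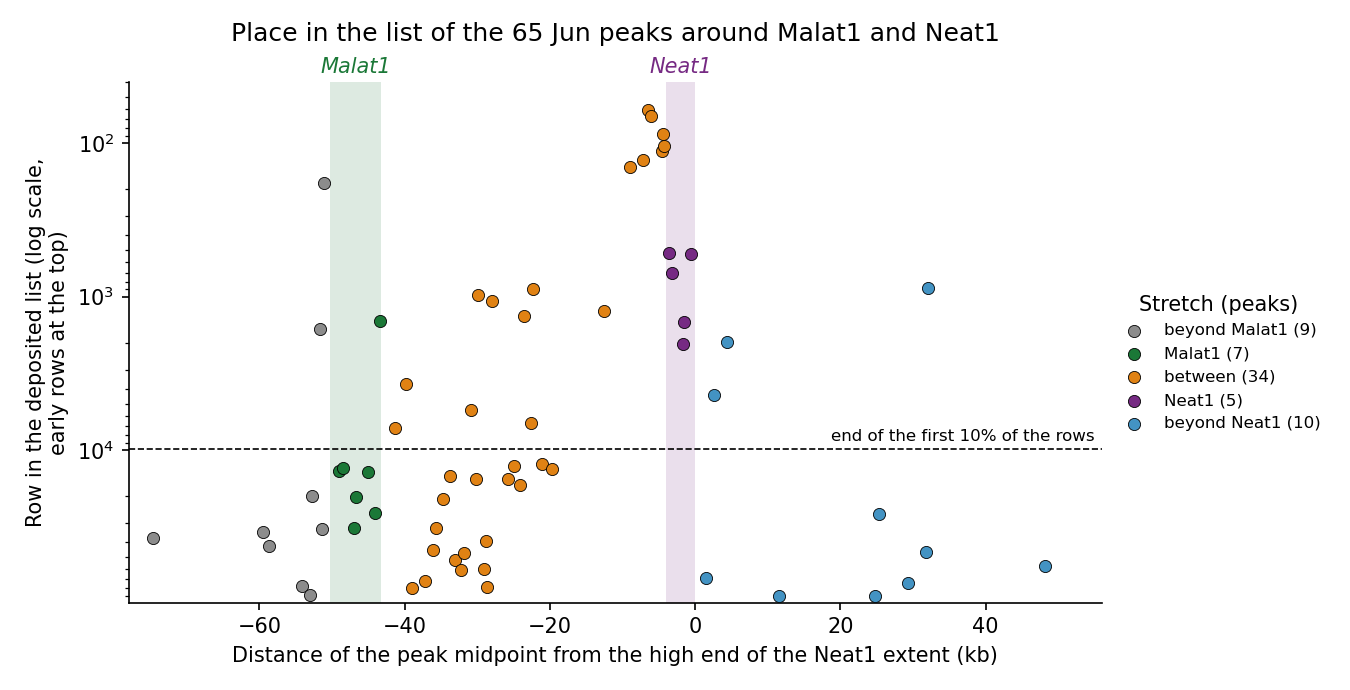
Row of each of the 65 Jun peaks in the deposited list (vertical axis, log scale, early rows at the top) against the distance of its midpoint from the high end of the Neat1 extent in kb (horizontal axis); shaded bands are the approximate extents and colours the 5 stretches. The 13 peaks of the run, in and just left of the Neat1 band, lie between rows 61 and 2041, while 6 of the 7 Malat1 peaks lie below the dashed limit of the first 10%.

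The widths of the peaks in the window had a median of 104 bp, against 114 bp on the rest of chromosome 19 and 114 bp over all peaks. They ranged from 5 to 651 bp in the window, against 4 to 496 bp on the rest of chromosome 19 and 4 to 874 bp over all peaks. Of the members, 10 (15.4%, exact 95% interval 7.63 to 26.5) were narrower than 50 bp, beside 6.30% of all peaks. Another 11 (16.9%, 8.76 to 28.3) measured 200 bp or more, beside 14.0% of all peaks. In the 8 other windows with at least as many peaks, the median width was 131 bp, 9.01% of the peaks (exact 95% interval 7.0 to 11.4) were narrower than 50 bp, and 29.8% measured 200 bp or more. These intervals treat neighbouring peaks as independent, and whether the shares differ was not tested.

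Narrow peaks were about as frequent among early members as among later ones. In the first 10% of the whole list, 3.43% of the peaks were narrower than 50 bp and 4.65% measured 200 bp or more. Of the 27 members there, 4 were that narrow (14.8%, exact 95% interval 4.19 to 33.7) and 3 that wide (11.1%, 2.35 to 29.2), all 3 in Neat1 or next to its low end. Of the 38 later members, 15.8% (6.02 to 31.3) were that narrow and 21.1% (9.55 to 37.3) that wide. Over all peaks after the first 10% of the list, these shares were 6.62% and 15.1%. The intervals cover counting error only and treat neighbouring peaks of 1 library as independent. Whether the shares differ was not tested. The narrowest member, chr19:5838760-5838764, measured 5 bp and stood in row 129. It was the only one of the 97 peaks of 5 bp or less in the list that stood in the first 200 rows. Row and width were only weakly related among the 65 members, with a Spearman's rho of 0.12, against 0.13 over all 99162 peaks. These are correlations across peaks that share 1 library and are not independent replicates.

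By stretch, the median width was 167 bp in Neat1, 119 bp in Malat1, 98 bp between the genes, 85 bp on the low side of Malat1 and 116 bp on the high side of Neat1. The widest 5 members measured 651, 465, 452, 430 and 399 bp, of which the first and last lay in Malat1, the third in Neat1 and the other 2 within 2 kb of the Neat1 extent. The ranges of all 5 stretches overlapped.

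**Figure D4:**
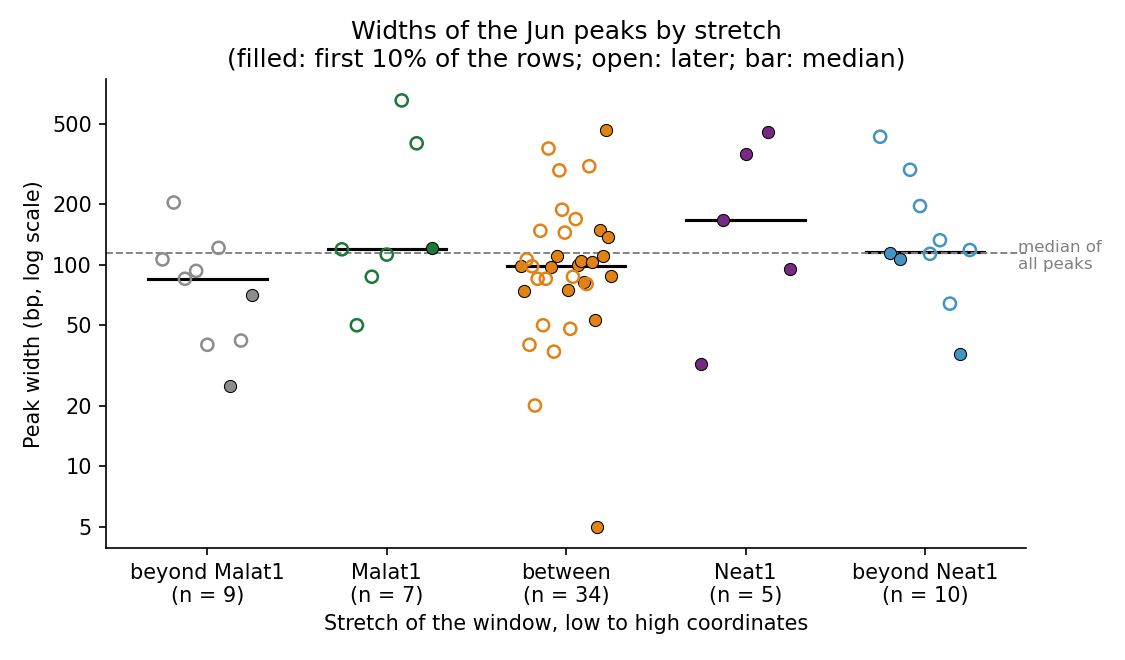
Width of each Jun peak in bp (vertical axis, log scale) in the 5 stretches of the window from low to high coordinates (horizontal axis), with filled points for peaks in the first 10% of the rows, open points for later ones, a bar at the median and a dashed line at the median of all peaks; beyond Malat1 is the low side of Malat1 and beyond Neat1 the high side of Neat1. The widest point (651 bp, open) is in Malat1, the narrowest (5 bp, filled) lies between the genes, and all 5 Neat1 points are filled.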

How the data were processed

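The data were the deposited list of Jun peaks, which gives chromosome, start and end in 3 columns and no header, score or strand. The build is mm9, per the submitters' processing notes. For the aligner, the peak caller, the use of the input library and the row order, the entry is: not given in the sources used here. No sample name is attached to the list, which was assigned to the only Jun library. Coordinates are the authors' deposited values, printed counted from 1. The 4 RNA-seq libraries of the series were not analysed here.

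Each peak was placed by its midpoint (Python 3.11.15, numpy 2.4.6, pandas 2.3.3). Windows of 130 kb were laid so that the studied one was among them. Their counting and the joining of peaks within 1000 bp were tested on simulated data. Exact binomial intervals were computed with scipy 1.17.1, at 95%. With 1 library and a window chosen from the list, no test was made. Named peaks were those in either gene, the 5 widest, the 5 earliest and those nearest the gene ends; others were named after their values were seen. The members and settings were chosen with earlier results of these data known. Promoter motifs were searched on both strands of RefSeq sequences of GRCm38.p6, which were not placed on mm9.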

Additional observations from a re-analysis of the deposited data

How the results depend on the processing

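For 8 described values, 21 alternatives were computed, and 11 stayed within the counting interval of the value or, for counts, within 1.5 times of it. Joining peaks within 1000 bp, which merges neighbours by construction, left 26 regions in the window, with a median width of 423 bp and a median midpoint distance of 3045 bp. The share of members in the early part of the list was 56.9% for the first 20% and 80.0% for the first 50% of the rows, where a larger part holds more peaks by construction. Peaks per gene depended on the approximate ends. Malat1 held 16 peaks when widened by 5 kb. Neat1 held 8 when widened by 1 kb, 14 when widened by 5 kb and 18 when lengthened by 20 kb, and the stretch between the genes then held 21. No paired analysis was possible because there is 1 Jun library and no test. Without read depth, a stretch with no peak cannot be taken as unbound.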
